A study of Mus musculus with 5 samples.

Results

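The endoplasmic reticulum (ER) stress and integrated stress response genes described here are 10 genes chosen by symbol: Hspa5, Hsp90b1, Dnajb9, Herpud1, Xbp1, Atf6, Atf4, Ddit3, Trib3 and Asns. All 10 were among the 13966 gene symbols of the deposited table. The study measured RNA in mouse hepatocytes sorted by fluorescence after the animals had received a probe of fatty acid oxidation (FAO), and asked how cells of unlike FAO activity differ. Mice were of the ICR strain, an outbred stock. Of the 5 groups, 3 came from mice given bezafibrate, a fibrate drug that activates peroxisome proliferator-activated receptors, and were sorted through a negative, a positive and a high-positive FAO gate. The other 2 groups were the negative and positive gates of hepatocytes with no drug named in their labels, called control here after their column names. Each group was 1 library. The sources used here do not give age, sex, dose, feeding state, how many mice each library holds, or whether gates of the same treatment shared a liver, so treatment and animal cannot be told apart.

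The ER folds and glycosylates secreted and membrane proteins, and hepatocytes carry a heavy load of them because they make most plasma proteins. When unfolded protein accumulates, the sensors IRE1, PERK and ATF6 start the unfolded protein response: IRE1 splices Xbp1 mRNA into the form that encodes an active transcription factor, ATF6 is cut in the Golgi to release a transcription factor, and PERK phosphorylates the initiation factor eIF2alpha. Phosphorylation of eIF2alpha, by PERK or by kinases that sense amino acid shortage, haem shortage or viral RNA, is the integrated stress response: it slows general translation while favouring translation of ATF4, whose targets include Ddit3, Trib3 and Asns.

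The recovered totals were 7146578, 5993366 and 6831281 reads in bezafibrate negative, positive and high cells, and 5454866 and 5056884 reads in control negative and positive cells. The deposited unit, called a normalised read count below, scales the reads of each library by a constant, and 1 read was worth 0.133 to 0.158 units in the bezafibrate libraries and 0.205 to 0.216 units in the control libraries. All 10 hepatocyte markers looked for were in the table, with summed values of 80590 to 112427 units in bezafibrate cells and 50400 to 51823 units in control cells. Alb made up most of that sum in bezafibrate cells, at 48208 to 72188 units there and 23064 to 24303 units in control cells, and not all markers went its way: Hnf4a was at 638 to 695 units in bezafibrate cells and 1008 to 1032 in control cells, Tat at 1811 to 1843 in bezafibrate cells and 2099 to 2178 in control cells, and Pck1 at 3159 to 3595 in bezafibrate cells and 3860 to 3917 in control cells. Of the stellate cell markers, 8 of 10 were in the table and Des and Acta2 were not. Their sum was 31.4 to 42.0 units in bezafibrate cells and 104.1 to 113.2 units in control cells, and Reln alone made up 28.5 to 29.8 units in bezafibrate cells and 93.4 to 105.8 units in control cells. Sums over the Kupffer cell, endothelial and cholangiocyte markers in the table did not exceed 34.1 units in any bezafibrate library and 31.4 units in any control library. Rn45s, the ribosomal RNA precursor, took 10.5% to 18.5% of reads in the bezafibrate libraries and 34.8% to 36.3% in the control libraries. Genes with short transcripts also had higher values relative to long ones under bezafibrate: in the negative gate, the median log2 difference was 0.37 over genes whose longest transcript has 238 to 1902 bases and -0.14 over genes with 5322 bases or more, and the medians of the positive gate were 0.25 and -0.10. Both features moved with treatment, and both also differed among the gates of treated cells. There Rn45s took 10.5% of reads in the negative gate, 18.5% in the positive gate and 13.5% in the high gate. For bezafibrate positive minus negative, the median log2 difference was -0.13 over the same short genes and 0.05 over the long ones. Between the control gates these medians were 0.02 and 0.01. The part of both features in the differences below, by treatment or by gate, was not tested. As every group is 1 library, no difference could be checked against replicates, and p-values are left out.

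Per kilobase of the longest annotated transcript, Herpud1 had the highest mean level over the 5 libraries, at 276 units per kb, followed by Hsp90b1 at 179 and Hspa5 at 119 units per kb. Xbp1 and Atf4 followed at 55.1 and 55.0 units per kb, and their ranges over libraries overlapped. Ddit3 at 13.7, Trib3 at 11.5, Atf6 at 9.53 and Dnajb9 at 7.36 units per kb also had overlapping ranges. Asns, at 0.463 units per kb, was close to the detection limit, with 14, 9 and 4 reads in bezafibrate negative, positive and high cells and 1 and 3 reads in control negative and positive cells. The resident chaperones and the degradation factor were thus the abundant transcripts of the set, and Atf6, Dnajb9 and the targets of ATF4 the scarce ones. The other 9 genes were at or above 5 units in every library, and Asns was the only one that did not pass the filter of a mean of 5 units, which 8981 genes passed.

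The sequences by which this pathway is usually recognised were looked for in the proximal promoters of the genes, because the unfolded protein response and ATF4 are known to act through short promoter elements. RefSeq promoters on GRCm38.p6, from 250 bases before to 50 bases after the annotated start, were given for 9 of the 10 genes. Elements searched on both strands were the ER stress response element (ERSE, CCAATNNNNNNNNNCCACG), its shorter relative ERSE-II (ATTGGNCCACG), the unfolded protein response element (UPRE, TGACGTG) and the C/EBP-ATF response element bound by ATF4 (CARE, TGATGNAA). Of all 32851 promoters, 0.119% held the ERSE letters, 0.0365% those of ERSE-II, 2.01% those of the UPRE and 3.97% those of the CARE. Hspa5, Hsp90b1, Herpud1, Trib3 and Asns held matches, and their promoters are printed in the direction of transcription up to 30 bases after the start, with every match in capitals. The Hspa5 window (chr2:34771840-34772119, plus strand) had the UPRE letters at -157 to -151 and the ERSE letters at -65 to -47. Hsp90b1 (chr10:86705415-86705694, minus strand) had ERSE letters at -212 to -194 and, on the opposite strand, at -107 to -89. Herpud1 (chr8:94386179-94386458, plus strand) had CARE letters on the opposite strand at -112 to -105 and ERSE-II letters at -52 to -42. Trib3 (chr2:152344031-152344310, minus strand) had CARE letters on the opposite strand at 15 to 22 bases after the RefSeq start. These letters (chr2:152344039-152344046) lie upstream of the start that GENCODE gives for Trib3, at 152344032. Asns (chr6:7693180-7693459, minus strand) had CARE letters on the strand of the gene at -23 to -16. No matches overlapped. None of these letters were found in the windows of Xbp1, Atf4, Ddit3 and Dnajb9. A match describes letters only and is neither a shown binding site nor a cause.
Hspa5: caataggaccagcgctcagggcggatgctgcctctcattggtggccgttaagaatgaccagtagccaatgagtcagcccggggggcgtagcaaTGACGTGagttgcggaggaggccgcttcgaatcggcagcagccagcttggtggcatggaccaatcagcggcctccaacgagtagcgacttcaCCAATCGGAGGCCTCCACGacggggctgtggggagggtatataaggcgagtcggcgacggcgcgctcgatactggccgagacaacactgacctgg
Hsp90b1: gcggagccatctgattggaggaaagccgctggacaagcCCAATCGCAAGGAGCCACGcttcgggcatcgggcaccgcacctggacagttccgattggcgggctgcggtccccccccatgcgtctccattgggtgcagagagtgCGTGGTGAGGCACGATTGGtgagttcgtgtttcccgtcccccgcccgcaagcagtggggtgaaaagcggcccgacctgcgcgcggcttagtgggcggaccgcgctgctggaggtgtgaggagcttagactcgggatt
Herpud1: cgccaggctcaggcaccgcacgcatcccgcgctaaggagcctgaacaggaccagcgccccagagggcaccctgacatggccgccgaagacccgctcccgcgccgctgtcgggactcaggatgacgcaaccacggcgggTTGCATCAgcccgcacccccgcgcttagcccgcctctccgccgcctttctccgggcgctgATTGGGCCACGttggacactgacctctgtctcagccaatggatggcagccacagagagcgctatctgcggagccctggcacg
Trib3: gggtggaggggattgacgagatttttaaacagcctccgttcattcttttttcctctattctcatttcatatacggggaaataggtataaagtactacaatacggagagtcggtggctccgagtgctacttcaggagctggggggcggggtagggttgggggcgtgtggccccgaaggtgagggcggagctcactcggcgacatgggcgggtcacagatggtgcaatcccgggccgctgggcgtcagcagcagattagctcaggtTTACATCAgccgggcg
Asns: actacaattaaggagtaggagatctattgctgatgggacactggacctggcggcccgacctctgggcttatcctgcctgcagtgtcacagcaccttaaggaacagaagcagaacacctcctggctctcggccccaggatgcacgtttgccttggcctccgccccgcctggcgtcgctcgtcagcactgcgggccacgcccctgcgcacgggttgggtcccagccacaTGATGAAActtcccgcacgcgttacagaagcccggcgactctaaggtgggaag

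The 10 genes did not move as 1 block under bezafibrate. Trib3 and Dnajb9 were at least 2-fold higher and Ddit3 at least 2-fold lower in bezafibrate cells, in both the negative and the positive gate, and Atf4 was lower in both. The abundant chaperones Hspa5 and Hsp90b1 were higher by at most 1.30-fold on the deposited scale, and Herpud1 and Xbp1 lay within 1.12-fold of control. Of the 9 genes that passed the filter, 2 were therefore at least 2-fold higher and 1 at least 2-fold lower in each gate. In the background of 8981 genes, the negative gate had 10.3% at least 2-fold higher and 5.86% at least 2-fold lower, while the positive gate had 4.97% higher and 2.91% lower. Scaling to column totals turned these shares into 16.1% higher and 2.97% lower for the negative gate, and 9.11% higher and 1.46% lower for the positive gate. Totals that leave out Rn45s gave 6.07% higher and 11.7% lower for the negative gate, and 3.73% higher and 4.08% lower for the positive gate. The median log2 difference of the 9 genes was 0.29 in the negative gate and 0.13 in the positive gate, beside 0.02 and 0.00 over all genes. In sorted bulk cells, fewer cells that express a gene and less RNA per cell cannot be told apart.

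Hspa5 (chr2:34771970-34777547, plus strand on GRCm38, the mm10 assembly) encodes BiP, the Hsp70 chaperone of the ER lumen that also holds the stress sensors inactive. Its normalised read count was 472, 438 and 495 in bezafibrate negative, positive and high cells, and 385 and 387 in control negative and positive cells. All 3 bezafibrate libraries lay above both control libraries. The ratio was 1.23 in the negative gate (95% counting interval 1.16 to 1.30) and 1.13 in the positive gate (1.07 to 1.20). Hsp90b1 (chr10:86690209-86705509, minus strand) encodes GRP94, the ER member of the Hsp90 family. It stood at 595, 514 and 497 units in bezafibrate negative, positive and high cells, and at 458 and 469 units in control negative and positive cells. The groups did not overlap, and bezafibrate negative cells were highest, with a ratio to control of 1.30 (1.23 to 1.37) against 1.09 (1.04 to 1.16) in the positive gate. The sizes depended on the scaling: in the negative gate, column totals gave log2 differences of 0.53 for Hspa5 and 0.61 for Hsp90b1, and totals without Rn45s gave 0.036 and 0.12. For the positive gate these were 0.39 and 0.34 with column totals, and 0.067 and 0.016 without Rn45s. Both genes carry the ERSE letters in the promoters printed above. The strand setting of the authors' counting is unknown here, and 415 of the 2825 exon bases of Hsp90b1 are shared with the pseudogene 1810014B01Rik on the opposite strand, which had at most 1.33 units in bezafibrate cells and 0.821 in control cells.

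Dnajb9 (chr12:44205559-44210326, minus strand) encodes ERdj4, a co-chaperone of BiP that is known as a target of spliced XBP1 and as a repressor of IRE1. It showed the largest ratio in the negative gate among the 9 genes that passed the filter. Its normalised read count was 32.8, 21.0 and 19.6 in bezafibrate negative, positive and high cells, and 9.03 and 8.19 in control negative and positive cells. Every bezafibrate library was above 2 times the level of either control library. The ratio was 3.63 in the negative gate (2.63 to 5.12), where 149 of 8981 genes had a larger positive log2 difference, and 2.56 in the positive gate (1.77 to 3.77), where 218 genes did. Dnajb9 thus stood far apart from the chaperones with which it works, and its promoter window held none of the letters searched.

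Herpud1 (chr8:94386438-94395377, plus strand) encodes a membrane protein that assembles the complex for ER-associated degradation. It was at 569, 536 and 518 units in bezafibrate negative, positive and high cells, and at 553 and 518 units in control negative and positive cells. The groups overlapped, and the ratio was 1.03 in the negative gate (0.979 to 1.08) and 1.03 in the positive gate (0.981 to 1.09). Its log2 difference changed sign when Rn45s was left out of the totals, to -0.22 in the negative gate and -0.07 in the positive gate, and was -0.05 in the negative gate when the 100 highest genes were left out. Xbp1 (chr11:5520659-5525893, plus strand), the substrate of IRE1, had 122, 118 and 125 units in bezafibrate negative, positive and high cells, and 109 and 114 units in control negative and positive cells. The bezafibrate libraries were above the control libraries by a small margin, with a ratio of 1.12 (1.004 to 1.25) in the negative gate and 1.04 (0.927 to 1.16) in the positive gate. Without Rn45s in the totals the log2 differences were -0.10 and -0.06 in the negative and positive gates, so a direction for Xbp1 depended on the scaling. A value per gene cannot separate spliced from unspliced Xbp1 RNA, and IRE1 activity was not measured by it.

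Atf6 (chr1:170704674-170867771, minus strand) encodes the sensor that becomes a transcription factor after cleavage. It was at 74.2, 73.9 and 75.7 units in bezafibrate negative, positive and high cells, and at 54.2 and 67.3 units in control negative and positive cells. The 3 bezafibrate libraries were nearly level, while the control libraries differed by 1.24-fold between the gates. The ratio was 1.37 in the negative gate (1.18 to 1.59) and 1.10 in the positive gate (0.950 to 1.27), where the interval includes 1.

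**Figure D1:**
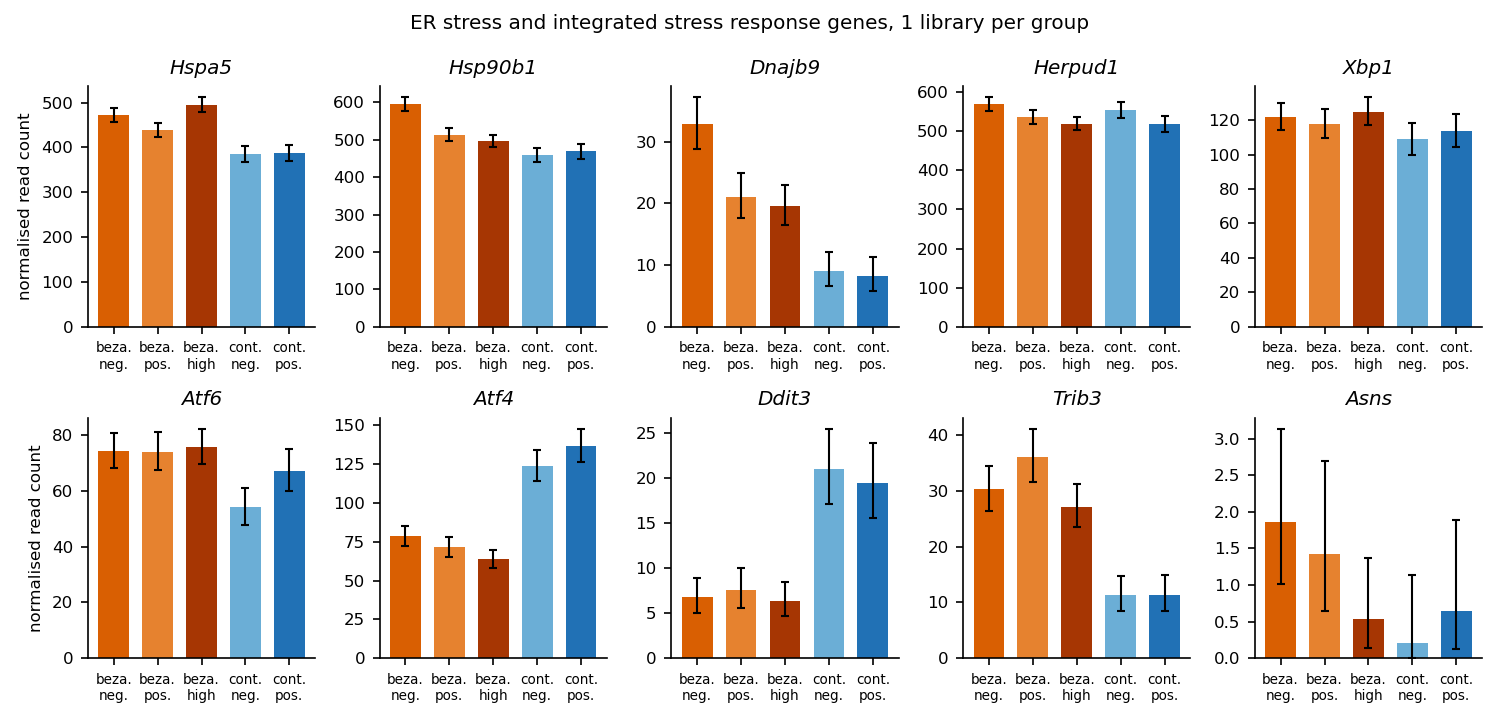
Bars give the normalised read count of each of the 10 genes in the 5 libraries, with the bezafibrate negative, positive and high gates (orange) left of the control negative and positive gates (blue). Error bars are exact 95% Poisson intervals and cover counting error only. Dnajb9 and Trib3 stand higher in all 3 bezafibrate libraries, Atf4 and Ddit3 stand lower in all 3, and Herpud1 lies between 518 and 569 units in every library.

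Atf4 (chr15:80255184-80257541, plus strand) encodes the transcription factor on which the eIF2alpha kinases converge, and is controlled largely at translation, which RNA levels do not show. Its normalised read count was 78.6, 71.4 and 63.8 in bezafibrate negative, positive and high cells, and 124 and 136 in control negative and positive cells. All 3 bezafibrate libraries lay below both control libraries. The ratio was 0.635 in the negative gate (0.566 to 0.713) and 0.523 in the positive gate (0.463 to 0.591). On the log2 scale this was -0.65 and -0.92, and 1349 of 8981 genes in the negative gate and 324 in the positive gate had a lower value.

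Ddit3 (chr10:127290774-127296288, plus strand) encodes CHOP, the C/EBP-family factor linked to cell death under prolonged ER stress and a known target of ATF4. It was at 6.80, 7.57 and 6.40 units in bezafibrate negative, positive and high cells, and at 20.9 and 19.4 units in control negative and positive cells. Each bezafibrate library was less than 0.4 times either control library. The ratio was 0.325 in the negative gate (0.227 to 0.459) and 0.390 in the positive gate (0.269 to 0.560). On the log2 scale, 125 of 8981 genes in the negative gate and 117 in the positive gate were lower. Ddit3 shares 68 of 890 exon bases with Mars on the opposite strand, and Mars, which encodes methionyl-tRNA synthetase, was at 42.3, 45.9 and 46.4 units in bezafibrate negative, positive and high cells and 60.2 and 56.9 units in control negative and positive cells. Reads in those bases may be counted for either gene. In the annotation used here, another locus on the same strand also has the symbol Ddit3 and shares 105 of the 890 exon bases. A single value per symbol cannot separate these loci.

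Trib3 (chr2:152337422-152344032, minus strand) encodes a pseudokinase that binds ATF4 and CHOP and inhibits AKT in liver. It went opposite to both factors, with 30.3, 36.1 and 27.2 units in bezafibrate negative, positive and high cells, and 11.3 and 11.4 units in control negative and positive cells. The lowest bezafibrate library was above 2 times either control library. The ratio was 2.68 in the negative gate (1.99 to 3.67), where 453 of 8981 genes had a larger positive log2 difference, and 3.16 in the positive gate (2.33 to 4.34), where 99 genes did. Asns (chr6:7675169-7693254, minus strand), asparagine synthetase, is a classical target of ATF4 when amino acids are short. It had 1.87, 1.42 and 0.533 units in bezafibrate negative, positive and high cells, and 0.205 and 0.647 units in control negative and positive cells. At 1 to 14 reads a library the groups overlapped. The ratio was 9.09 in the negative gate (1.38 to 384) and 2.19 in the positive gate (0.547 to 12.6), so that no size can be given for it at this depth.

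**Figure D2:**
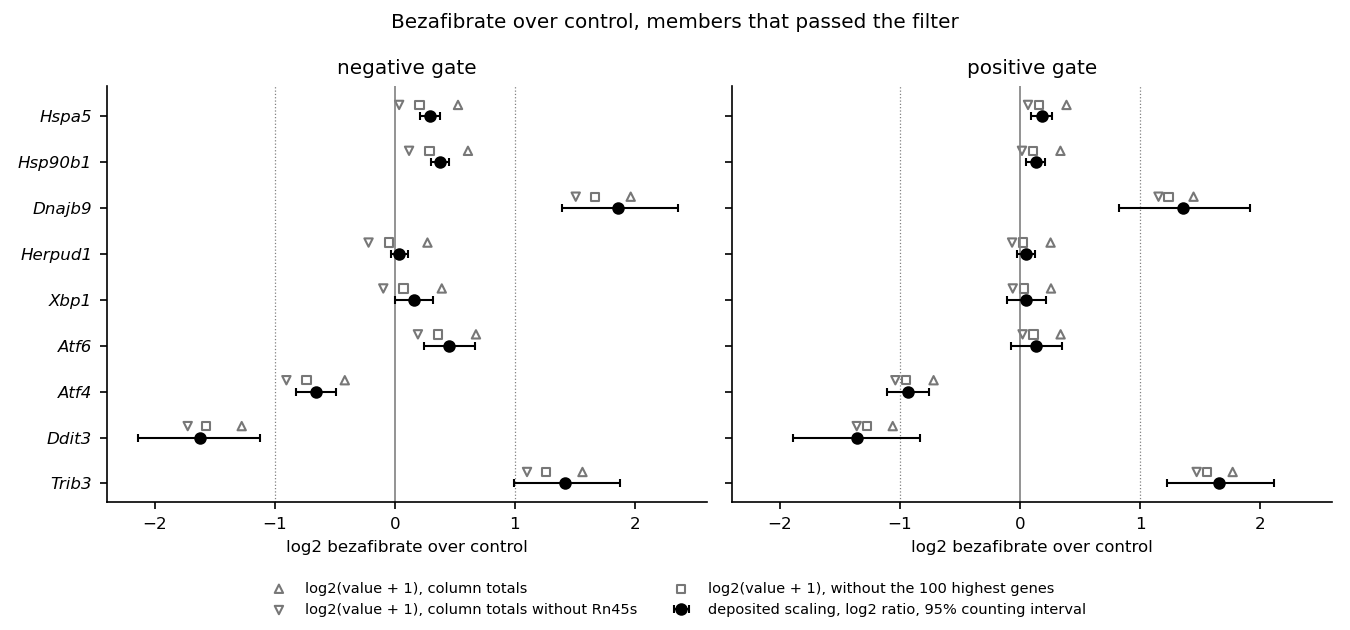
Filled points give the log2 ratio of bezafibrate over control in the negative gate (left) and the positive gate (right) for the 9 genes that passed the filter, with 95% counting intervals, and open symbols give differences of log2(value + 1) under 3 other scalings. Dotted lines mark 2-fold. Dnajb9, Trib3 and Ddit3 stay beyond 2-fold in both gates under all 3 scalings, Atf4 stays below 0 and passes 2-fold lower in the positive gate without Rn45s, Herpud1 and Xbp1 change sign without Rn45s, and Herpud1 also does so in the negative gate without the 100 highest genes.

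Of the 9 genes that passed the filter, 0 reached a 2-fold difference in each of the 4 comparisons of FAO gates, a count near the background. Over all 8981 genes the share at 2-fold either way was 0.334% between the positive and negative gates of control cells, 0.256% between the positive and negative gates of bezafibrate cells, 0.156% between the high and positive gates, and 0.267% between the high and negative gates. The median log2 difference of the 9 genes was 0.02 between the control gates, -0.09 between bezafibrate positive and negative, -0.05 between bezafibrate high and positive, and -0.13 between bezafibrate high and negative cells, where all genes had medians of 0.01, -0.01, 0.00 and -0.02. The largest gate difference among the 9 was that of Dnajb9, which was lower in bezafibrate positive cells than in bezafibrate negative cells, with a ratio of 0.639 (0.514 to 0.793), and lower in bezafibrate high cells than in bezafibrate negative cells, with a ratio of 0.597 (0.484 to 0.736). On the log2 scale, 183 and 87 of 8981 genes were lower in these comparisons. Between the control gates Dnajb9 was at 8.19 units in positive and 9.03 units in negative cells, 38 and 44 reads, and the gate difference between treatments was not tested.

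Hsp90b1 followed Dnajb9 in direction, with a ratio of 0.863 (0.825 to 0.903) between bezafibrate positive and negative cells and 0.834 (0.799 to 0.872) between bezafibrate high and negative cells. The log2 differences of Hsp90b1, -0.21 and -0.26, became -0.065 and -0.15 when Rn45s was left out of the totals. Those of Dnajb9, -0.62 and -0.715, became -0.48 and -0.60. Atf4 was lower in bezafibrate high than in bezafibrate negative cells, with a ratio of 0.811 (0.718 to 0.917). Hspa5 was higher in bezafibrate high than in bezafibrate positive cells, with a ratio of 1.13 (1.08 to 1.19), and Trib3 was lower, with a ratio of 0.753 (0.620 to 0.913). In control cells, Atf6 was higher in the positive than in the negative gate, with a ratio of 1.24 (1.05 to 1.47). The remaining gate ratios of the 9 genes whose interval does not include 1 were those of Herpud1 and Hspa5, and they lay between 0.912 and 1.05. Asns, which did not pass the filter, had 4 reads in bezafibrate high and 14 in bezafibrate negative cells, a ratio of 0.286 (0.0684 to 0.909). Between bezafibrate positive and negative cells, the sign of Hspa5, Herpud1, Xbp1, Atf4 and Atf6 changed under at least 1 other scaling, so no direction is given for them there. On the deposited scale, most genes of the ER lists described below were also lower in this comparison. Below 0 were 17 of 18 chaperones, 14 of 15 disulfide isomerases and oxidoreductases and 9 of 9 oligosaccharyltransferase subunits. For translocation, export and degradation genes it was 19 of 20, 14 of 15 and 15 of 20. Of all genes, 48.4% were above 0. Totals without Rn45s moved the median of all genes by 0.14 in this comparison, where the degradation list had a median of -0.07. These list counts are not given under other scalings, and the shift of short genes between these gates was not removed from them. On the deposited scale, the direction of Dnajb9 and Hsp90b1 was thus not particular to them.

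**Figure D3:**
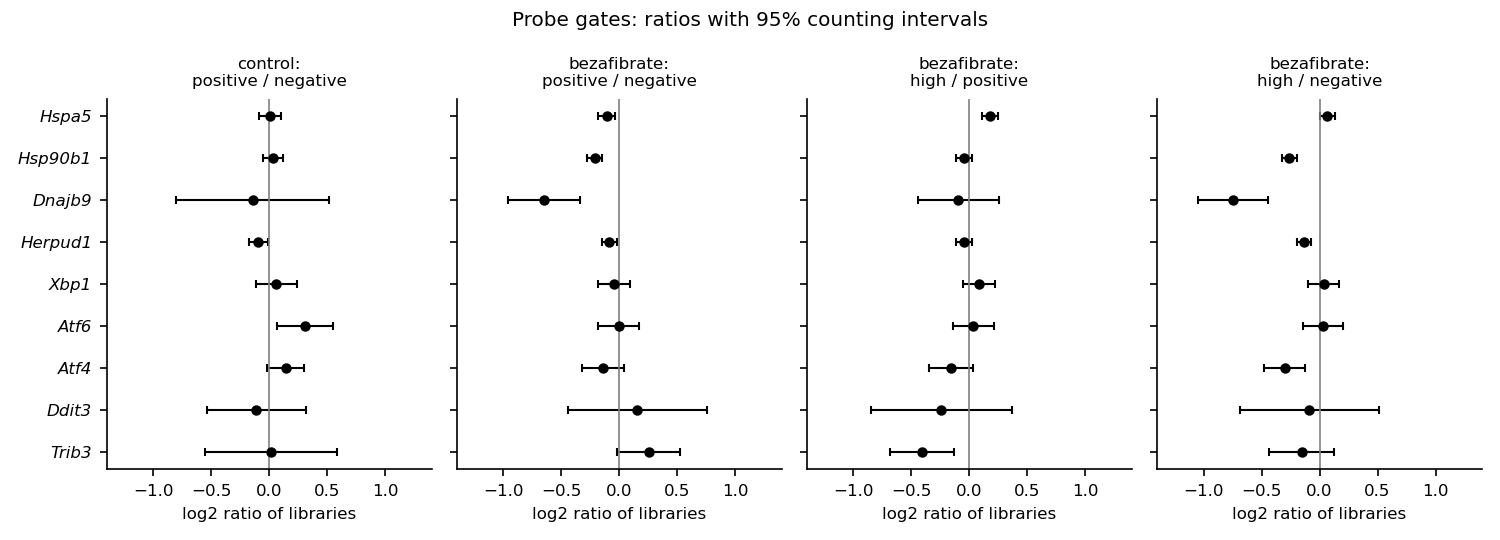
Points give the log2 ratio of the 9 genes that passed the filter between FAO gates, 1 panel per comparison, with 95% counting intervals. Dnajb9 is lower in bezafibrate positive and high cells than in bezafibrate negative cells, and no gene passes 2-fold in any panel.

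The wider machinery of ER protein folding was placed beside the 10 genes through 16 gene lists, under bezafibrate against control. Of all 8981 genes, 51.4% were above 0 in the negative gate and 50.4% were in the positive gate, and the shares at 2-fold were those given above. ER chaperones and co-chaperones had a median log2 difference of 0.43 in the negative gate and 0.28 in the positive gate, with 15 and 13 of 18 analysed genes above 0 and 2 at least 2-fold higher in each gate, where the background was 10.3% of genes for the negative gate and 4.97% for the positive gate. Calr, the lectin chaperone calreticulin, had ratios of 1.44 and 1.19 in the negative and positive gates. Fkbp11, a prolyl isomerase of the secretory pathway, had 2.33 (1.34 to 4.25) and 3.33 (1.59 to 7.79). It was at 3.49 and 1.94 units in control negative and positive cells and passed the filter only through its bezafibrate values. The other chaperone at 2-fold was Dnajb9, which is 1 of the 10 genes, so the count at 2-fold is not independent of them. Protein disulfide isomerases and ER oxidoreductases had medians of 0.65 and 0.52 in the negative and positive gates, with 13 and 12 of 15 genes above 0, against 51.4% and 50.4% of all genes, and 4 and 2 at least 2-fold higher, against 10.3% and 4.97%. Pdia3, which works with calnexin and calreticulin on glycoproteins, was at 316, 246 and 269 units in bezafibrate negative, positive and high cells, against 116 and 103 units in control negative and positive cells. Erp44, which retains oxidoreductases in the early secretory pathway, had ratios of 2.56 and 2.27 in the negative and positive gates. P4hb, the abundant disulfide isomerase, had ratios of 1.41 and 1.15, and the sulfhydryl oxidase Qsox1 had 1.45 and 1.11. In log2 difference, Hspa5 and Hsp90b1 were thus below the list medians, and Dnajb9 was the highest of the chaperone list in the negative gate.

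The steps before and after folding showed the same direction in their medians. The 9 analysed subunits of the oligosaccharyltransferase, which attaches N-glycans, had medians of 0.93 and 0.66 in the negative and positive gates. Its catalytic subunit Stt3a was at 74.6, 56.9 and 52.8 units in bezafibrate negative, positive and high cells, against 21.3 and 25.0 units in control negative and positive cells. The subunits Ostc, Rpn1 and Rpn2 had ratios of 2.86, 1.78 and 1.83 in the negative gate, with 2.07, 1.27 and 1.15 for the positive gate. The translocon, signal peptidase and signal recognition list had medians of 0.78 and 0.39 over 20 genes. The signal peptidase subunit Spcs1 had ratios of 5.65 (3.41 to 9.96) and 2.92 (1.67 to 5.42). It was at 3.49 and 3.45 units in control negative and positive cells and passed the filter only through its bezafibrate values. The signal peptidase catalytic subunit Sec11a had 2.19 and 2.01. The translocon pore subunit Sec61a1 had 1.48 and 1.37, and the signal recognition particle receptor Srpr 1.73 and 1.35. COPII and ER export genes had medians of 0.47 and 0.28 over 15 genes, and Sar1b, the small GTPase of COPII coats known for the export of lipoproteins, had ratios of 3.50 and 3.63. The COPII coat subunits Sec23a and Sec24a had 2.18 and 1.33 in the negative gate, with 1.90 and 1.35 for the positive gate, and the cargo receptor Lman1 had 1.90 and 1.57. ER-associated degradation genes, the list of Herpud1, had medians of 0.35 and 0.16 over 20 genes, with 16 above 0 in each gate, against 51.4% and 50.4% of all genes, and 1 and 0 at least 2-fold higher, below the background of 10.3% and 4.97%. The lectins Erlec1 and Os9 had ratios of 2.32 and 1.30 in the negative gate, with 1.67 and 1.15 for the positive gate, and the ubiquitin-conjugating enzyme Ube2j1 1.76 and 1.29. The directions of these 6 medians, of the ER folding, glycosylation, translocation, export and degradation lists, were the same under every scaling, pseudocount and filter tried. The shift of short genes given above was not removed from them. Over the 14 analysed genes whose promoters hold the ERSE letters, Hspa5 and Hsp90b1 among them, the median was 0.26 in the negative gate and 0.11 in the positive gate, beside 0.02 and 0.00 over the 6922 analysed genes with a promoter in the table. Of the 14 genes, 8 were above 0 and 0 reached 2-fold in each gate, and of the 6922 genes 3556 and 3469 were above 0, so the count for the 14 lies near the background.

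The sensors and transcription factors had medians below 0. The 6 genes of sensors and proteases of the unfolded protein response had medians of -0.33 and -0.30 in the negative and positive gates. Of these, 2 were above 0 in each gate, Mbtps2 and Atf6, which is 1 of the 10 genes. Ern1, which encodes IRE1alpha, was at 124, 136 and 131 units in bezafibrate negative, positive and high cells, against 241 and 246 units in control negative and positive cells. Mbtps1 and Mbtps2, the proteases that cut ATF6, went apart: Mbtps1 had ratios of 0.776 and 0.827, and Mbtps2 had 1.43 (0.870 to 2.43) and 2.39 (1.32 to 4.59), at 2-fold in the positive gate alone. Mbtps2 was at 4.93 and 3.23 units in control negative and positive cells and passed the filter only through its bezafibrate values. The 12 analysed transcription factors, of which Atf4, Atf6, Ddit3 and Xbp1 are 4, had medians of -0.33 and -0.32, with 3 and 4 above 0. Atf5, a relative of Atf4 and with Creb3l3 among the most abundant of them, had ratios of 0.694 and 0.629, and Creb3l3 had 0.830 and 0.888. In the list of eIF2alpha kinases, phosphatases and eIF2B, Ppp1r15a (GADD34), the stress-induced regulatory subunit that brings about eIF2alpha dephosphorylation, had ratios of 0.403 and 0.553. Its constitutive counterpart Ppp1r15b had 0.973 and 0.753, and Eif2s3x, the gamma subunit of eIF2, had 2.11 and 1.53, while the list median was 0.26 and 0.01 and changed sign under other scalings in the positive gate and with a filter of 20 units in both gates.

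The list of ATF4 and CHOP targets of stress and growth had medians of -0.51 and -0.27 in the negative and positive gates over 14 genes, with 3 and 5 above 0. Trib3 had the highest log2 difference of this list in both gates, and Fgf21 the lowest. Fgf21, a hepatokine known as a target of ATF4 and also of PPARalpha, was at 2.93, 4.57 and 4.66 units in bezafibrate negative, positive and high cells, against 11.5 and 12.1 units in control negative and positive cells. It passed the filter only through its control values. Gdf15, a stress cytokine, had ratios of 0.632 and 0.777, and Cars, a cysteinyl-tRNA synthetase, 0.518 and 0.597. Of the 17 ATF4 targets of amino acid synthesis and transport, 6 passed the filter, and Asns was 1 of the 11 that did not. The serine hydroxymethyltransferase Shmt2 had ratios of 1.94 and 1.28 and the cystathionine lyase Cth 1.36 and 1.14, while the amino acid transporter genes Slc38a2 and Slc3a2 had 0.698 and 0.5003 in the negative gate, with 0.764 and 0.813 for the positive gate. Their medians of 0.07 and -0.11, and those of 20 cytosolic aminoacyl-tRNA synthetases at 0.01 and -0.18, changed sign under other scalings. Of the synthetases, Wars had ratios of 1.99 and 3.16, Dars 2.33 and 1.87, Aars 0.798 and 0.795, and Eprs 1.11 and 1.08. The medians of the sensors, the transcription factors and the ATF4 and CHOP targets stayed below 0 in both gates under every scaling, pseudocount and filter tried. Most listed targets of ATF4 and CHOP that passed the filter thus did not share the direction of Trib3 in these libraries.

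Other stress programmes were measured in the same way. Cytosolic heat shock proteins had medians of 0.05 and -0.05 in the negative and positive gates, and the sign changed with scaling. The abundant Hsp90ab1 had ratios of 1.60 and 0.994 and Hspa8 1.03 and 0.796, while the co-chaperone Dnaja1 had 1.86 and 1.52 and the heat shock factor Hsf1 0.623 and 0.581. Mitochondrial chaperones and proteases had medians of 0.61 and 0.37 over 11 genes, and Hspd1, which encodes HSP60, had ratios of 2.23 and 1.88, Hspe1 2.42 and 1.95, and Hspa9 1.94 and 1.57. Transcripts listed as substrates of IRE1-dependent decay had medians of 0.81 and 0.27 over the 6 that passed the filter, of 10. The cytochromes P450 Cyp2e1 and Cyp1a2 had ratios of 1.996 and 1.20 in the negative gate, with 1.28 and 0.882 for the positive gate. Immediate early genes, which rise with tissue handling and dissociation among other stimuli, had medians of -0.97 and -0.72 over 16 genes, with 7 and 3 at least 2-fold lower, where 5.86% and 2.91% of all genes were. Myc had ratios of 0.172 and 0.195, and Nr4a1 0.171 and 0.248. Their most abundant members, Egr1 and Jun, were on the same side of 1 as Atf4 and Ddit3, with ratios in the negative gate of 0.509 for Egr1 and 0.432 for Jun, and ratios in the positive gate of 0.562 for Egr1 and 0.536 for Jun. Their part in the values of Atf4 and Ddit3 was not tested.

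**Figure D4:**
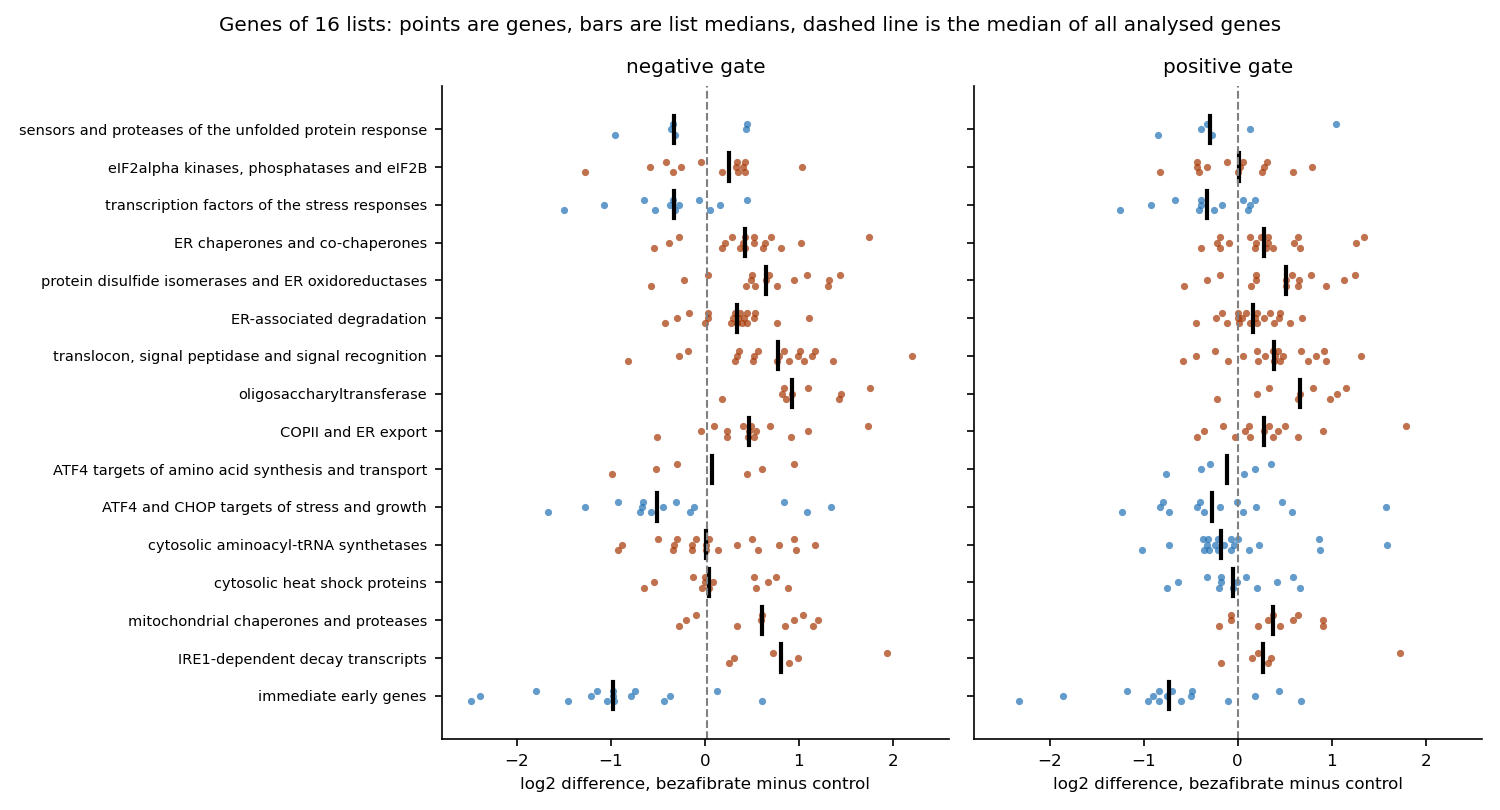
Each point is 1 gene of a list that passed the filter, placed by its difference of log2(value + 1) between bezafibrate and control in the negative gate (left) and the positive gate (right). Black bars are list medians, the dashed line is the median of all 8981 genes, and a list is orange where its median is above 0 and blue where it is below. Medians of the ER folding and export lists lie to the right of the dashed line, and those of sensors, transcription factors and immediate early genes lie to the left. Some single genes lie on the other side of the line from their list median.

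The genes with the profile nearest to that of Hspa5 over the 5 libraries were Abcc3, a hepatic efflux transporter, Gosr1, a Golgi SNARE protein, and Pdpk1, a kinase upstream of AKT. Their Euclidean distances between centred log2 profiles were 0.036, 0.045 and 0.060, where the median over 4949 genes was 0.584. Abcc3 was at 371, 349 and 385 units in bezafibrate negative, positive and high cells, and at 309 and 303 units in control negative and positive cells. The nearest to Asns were Rab2a at 0.312, Rfk at 0.341 and Qk at 0.379, distances that rest on the few Asns reads. Likeness over 5 libraries that share 2 treatments is a description only.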

How the data were processed

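RNA was measured in 5 libraries, 1 per group, grouped by the labels. Per the labels' protocols, the RNA kit was one named for fixed, embedded tissue, libraries were directional and rRNA-depleted, and reads were paired. The submitters' processing notes list Trimmomatic 0.36, Bowtie2, RSEM, edgeR and the build mm10. Not given in the sources used here are the annotation, the strand setting and the normalization. The authors deposited 1 table of normalised signal. Divided by the smallest non-zero value of its column, 100% of values came out as whole reads (tolerance 0.001 reads), and library sizes from trimmed-mean (TMM) scaling of those reads in edgeR equalled the deposited factors.

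Genes with a mean of at least 5 units were analysed as differences of log2(value + 1), which understates changes of low genes. Ratios are of deposited values, with exact Clopper-Pearson 95% intervals that cover counting error only, since reads carry no molecular identifiers. At 2-fold or more a gene was counted. The 10 genes and the lists were chosen with earlier results of these data known. Genes named beside the 10 were the 2 most abundant and the 2 with the largest treatment difference of each list, and the 3 genes nearest in profile to Hspa5 and to Asns among those with a mean of at least 20 units. A list gene picked this way is not reported here. A fit with terms for gate and treatment, on the 4 libraries of the shared gates, used limma 3.58.1 and edgeR 4.0.16 (R 4.3.3). It has 1 residual degree of freedom and is not a test between replicates, so only its counts of genes are given. The remaining computation, tested on simulated data, ran in Python 3.11.15 with pandas 2.3.3, scipy 1.17.1 and numpy 2.4.6. Gene coordinates and lengths came from GENCODE for GRCm38, and promoters from RefSeq for GRCm38.p6. Alternatives were other scalings, pseudocounts, filters and fits.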

Additional observations from a re-analysis of the deposited data

How the results depend on the processing

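Ratios of 9 genes rest on 38 reads or more per library. Under scaling by column totals, which moved the median of all genes by 0.22 in the negative gate and 0.20 in the positive gate on the log2 scale, the median of the 9 genes was 0.53 and 0.34. Under totals without Rn45s, which moved all genes by -0.24 and -0.11, the median of the 9 genes was 0.036 in the negative and 0.016 in the positive gate. The number of genes at 2-fold, 3 in each gate, became 1 in each gate with a filter of 20 units, which leaves out Dnajb9 and Ddit3, and 1 in the positive gate with a pseudocount of 5, where Ddit3 was at -0.96 and Dnajb9 at 0.98. Without a filter Asns was added in the negative gate only. Of 61 values per comparison, signs changed in 3 and 2 for treatment in the negative and positive gates. They changed in 8 between bezafibrate positive and negative, and in 0 between the control gates. A pseudocount or filter cannot change the sign of a gene. All sign changes thus came from the 9 genes under the 3 other scalings, and 61 overstates how many values could change. No gene at 2-fold changed sign. The additive fit called 4072 of 8981 genes, edgeR on whole reads 4110, and limma on column totals 4214 of 8915. A called gene had a false discovery rate below 0.05 for the treatment term. The totals were alike, but the directions depended on the scaling. Limma called 2200 genes higher and 1872 lower under bezafibrate on the deposited scale, and 3171 higher and 1043 lower on column totals. No paired analysis was possible because each group has 1 library and so no replicates to pair across groups; gate enters the additive fit as a term. Leaving out a library was not possible for the same reason.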
